A study of Mus musculus with 27 samples.

Results

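This account follows 29 mouse genes of cholesterol synthesis and its control, from the enzymes that build mevalonate to the sterol sensors and the proteins that take up, move and store cholesterol. They were listed by name, with no measured value in the rule, and all 29 were present among the 25192 gene symbols of the count table and were tested in every comparison. The measurements came from bulk RNA sequencing of 27 libraries in 9 groups of 3: cultured bone marrow derived macrophages (BMDMs), cells labelled mouse aortic endothelial cells (MAECs) and mouse embryonic fibroblasts (MEFs), each unstimulated (0 h) or given imidazole propionate (ImP) at 10 µg/mL for 1 or 2 h. ImP is a product of histidine breakdown by gut bacteria, and the series asked which transcriptional pathways it raises in each cell type. The labels give no strain, sex, age, animal or culture behind a library and no vehicle group at 1 or 2 h, so ImP and time in culture cannot be told apart, and p-values cover the spread between these libraries alone, which may be technical. BMDM and MEF libraries were made with a directional kit, whereas the MAEC libraries came from smaller wells, another RNA extraction kit and a low-input library kit.

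Cells make cholesterol from acetyl-CoA through mevalonate, isoprenoids, squalene and lanosterol. The pathway is switched on by the transcription factors SREBP, which SCAP carries from the endoplasmic reticulum to the Golgi for cleavage when membrane sterol is low, and which INSIG proteins hold back when sterol is plentiful. Macrophages also take in cholesterol from lipoproteins and dead cells, release it from lysosomes and store the excess as cholesteryl ester, which makes this pathway a textbook topic in atherosclerosis.

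The promoters of 24 of the 29 genes were in the RefSeq table used here (GRCm38.p6), each as the 250 bases before and the 50 bases after the gene's start. Both strands were searched for 4 motifs, chosen after the matches had been seen: CCAAT, the site of the factor NF-Y; TCACNCCAC, a sterol response element; its shorter core CACNCCAC, which overlaps it; and CACGTG, an E-box. The first of these, CCAAT, was in 22 of the 24 promoters, all but those of Acat2 and Scap, and in 41.1% of 27025 genes in the table, or 43.3% of the 10271 genes at a mean level of 1 CPM (counts scaled to library size) or more in these libraries. The longer sterol element was in 1 member, Hmgcs1, and in 1.44% of all genes and 1.33% of those at 1 CPM or more; the shorter core was in 3 members (Acat2, Hmgcs1 and Insig1) and in 7.12% of all genes and 7.52% of those at 1 CPM or more. The E-box was in 5 members (Dhcr7, Hsd17b7, Insig1, Sc5d and Scap) and in 8.09% of all genes and 11.6% of those at 1 CPM or more. A match is a description of letters and not a measured binding site. Stretches of 4 promoters are printed 5′ to 3′ on the gene's strand because the levels of these genes separated the macrophages from the fibroblasts; capitals mark matches to the 4 motifs on either strand, ATTGG being CCAAT read on the other strand. The stretches lie at chr13:119690171-119690251 (Hmgcs1, plus strand), chr8:64733623-64733743 (Msmo1, minus strand), chr5:28071192-28071327 (Insig1, plus strand) and chr13:45389547-45389692 (Mylip, plus strand).
Hmgcs1: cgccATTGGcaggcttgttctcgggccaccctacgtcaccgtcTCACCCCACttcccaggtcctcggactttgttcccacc
Msmo1: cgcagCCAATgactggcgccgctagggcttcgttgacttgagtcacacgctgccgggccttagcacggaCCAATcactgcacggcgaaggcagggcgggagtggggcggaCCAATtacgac
Insig1: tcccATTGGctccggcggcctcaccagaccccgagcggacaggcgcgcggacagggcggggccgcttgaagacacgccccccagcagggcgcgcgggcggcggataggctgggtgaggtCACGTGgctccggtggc
Mylip: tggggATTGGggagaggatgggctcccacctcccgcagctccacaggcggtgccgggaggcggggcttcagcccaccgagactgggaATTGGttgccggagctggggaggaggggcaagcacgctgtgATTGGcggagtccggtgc
Msmo1 and Mylip each held 3 copies of CCAAT in the printed stretch, while Hmgcs1 carried the sterol element downstream of one and Insig1 the E-box. On GRCm38 (GENCODE M21) the genes themselves lie at chr13:119690379-119708260 (Hmgcs1), chr5:28071363-28078662 (Insig1) and chr13:45389742-45412022 (Mylip), all on the plus strand, and each printed stretch of these 3 lies upstream of the annotated start. Msmo1 lies at chr8:64718139-64733792 on the minus strand. Its printed stretch is upstream of the RefSeq start but inside the gene as annotated by GENCODE.

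Libraries held 28754034 to 35583478 counts in BMDMs, 18955352 to 61029374 in MAECs and 30554596 to 36489015 in MEFs. Levels are given as CPM, counts scaled to library size, on 1 scale over the 27 libraries. BMDMs held all 12 macrophage markers at 10 CPM or more. In the MAEC libraries 1 of 13 measured endothelial markers (Eng) reached 10 CPM, 8 lay under 1 CPM and Cldn5 was at 0, with a sum between 89.9 and 137 CPM, while 9 of 11 fibroblast markers (3290 to 5030 CPM in sum) and 5 of 8 smooth muscle markers (819 to 1460 CPM) reached it, as did 3 of 12 macrophage markers (46.3 to 86.1 CPM). The MAEC name is therefore used only as the label. In MEFs 5 of 11 fibroblast markers reached 10 CPM, their 11 summing to between 7070 and 8840 CPM. The third 1 h and the third 2 h BMDM library went against their labels in genes chosen after their values were seen. Tnf, an inflammatory cytokine, measured 17.7, 16.3 and 17.6 CPM unstimulated, 264, 257 and 21.1 CPM after 1 h and 16.6, 21.4 and 310 CPM after 2 h. Nfkbia, an inhibitor of NF-kB, measured 46.4, 42.2 and 42.5 CPM unstimulated, 261, 251 and 47.3 CPM after 1 h and 52.1, 42.6 and 270 CPM after 2 h. In both genes the third library of each time lay with the first 2 libraries of the other time. The labels were kept, and the macrophage ImP results are given with and without these 2 libraries.

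At 0 h the 29 genes spanned a wide range in each cell type. TPM was taken from the counts per length of all GENCODE M21 exons of a gene together, not of 1 transcript, and ranks depend on that length. By this measure the lysosomal cholesterol carrier Npc2 was the highest in all 3 cell types. It stood at 841 ± 53 TPM in BMDMs, 483 ± 35 TPM in MAECs and 137 ± 9.6 TPM in MEFs (SD, n = 3 each). Below it in BMDMs came Soat1, which esterifies cholesterol for storage (234 ± 8.9 TPM), and Npc1, the membrane partner of Npc2 (151 ± 8.9 TPM). In MAECs the next was Acat2, the cytosolic thiolase of the first step (95.3 ± 17 TPM), and in MEFs it was the transcription factor gene Srebf2 (97.6 ± 6.3 TPM). The lowest were Tm7sf2, a sterol reductase, in BMDMs (5.45 ± 0.24 TPM) and MEFs (1.46 ± 0.26 TPM), and Mylip in MAECs (3.32 ± 1.4 TPM). Mylip encodes IDOL, a ubiquitin ligase that limits the uptake of lipoprotein cholesterol. The spread between replicate libraries, as the pooled SD of log2 CPM within a time, ran over 0.05 (Npc2 and Soat1) to 0.30 (Pmvk) in BMDMs, 0.12 (Ebp) to 0.52 (Lss) in MAECs and 0.03 (Srebf1) to 0.30 (Insig1) in MEFs.

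**Figure D1:**
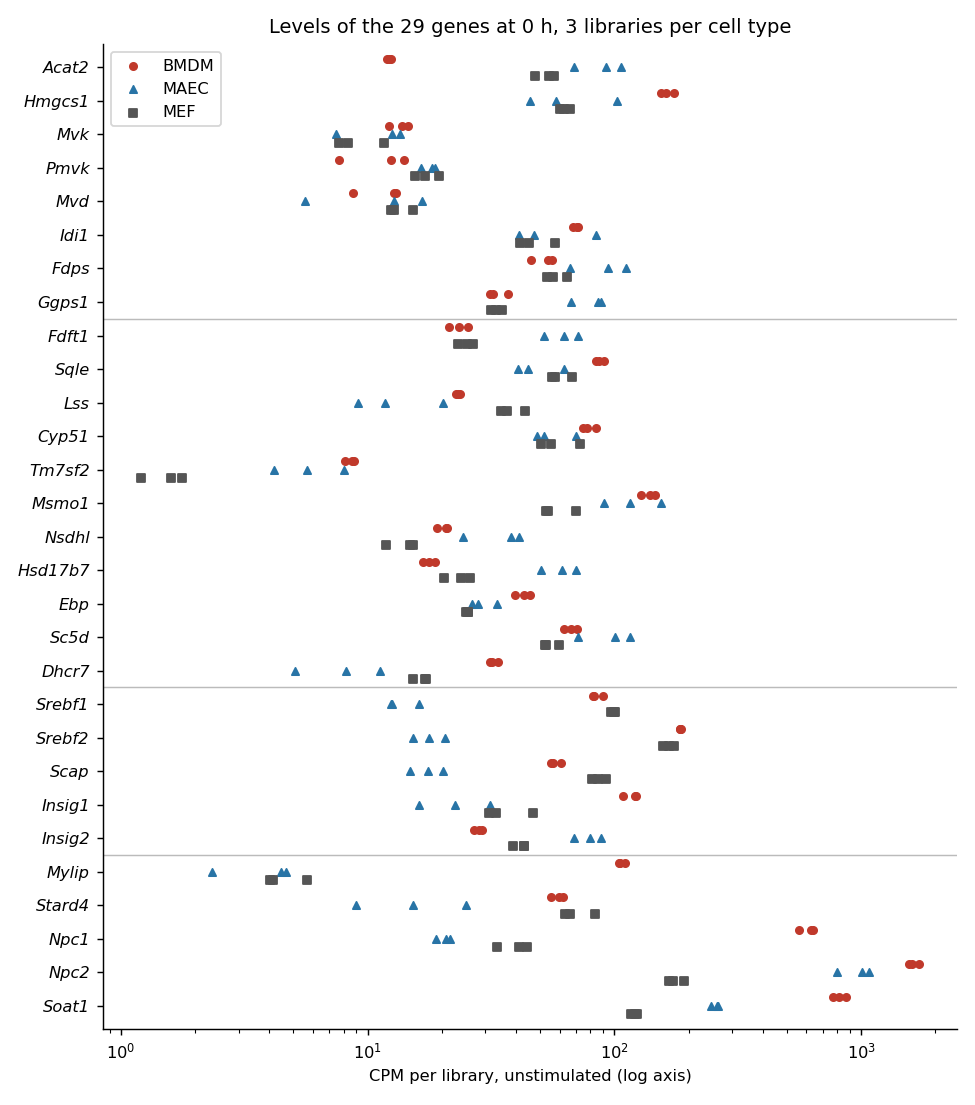
CPM of the 29 genes in each unstimulated library on a log axis, 3 points per cell type (BMDM, MAEC and MEF), with lines between the mevalonate pathway, the squalene and sterol steps, SREBP control, and uptake, transport and storage. The BMDM points of Mylip, Npc1, Npc2 and Soat1 lie far to the right of the MEF points, and the MAEC points of Srebf1, Srebf2 and Scap far to the left of both.

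The 4 largest differences between macrophages and fibroblasts were in genes that move cholesterol, store it or limit its uptake: Mylip, Npc1, Npc2 and Soat1, all higher in BMDMs. At 0 h, 24 of the 29 genes passed an adjusted p of 0.05 in edgeR's quasi-likelihood test between BMDMs and MEFs, beside 80.7% of the 15389 genes tested, so that the share among the members was near the background. In BMDMs 17 genes were higher (background 39.1%) and 7 were lower (background 41.6%), and the median log2 difference of the 29 was 0.40, against -0.05 over all genes. Over all 3 times, 13 of the 29 had every BMDM library above every MEF library (background 33.8%) and 5 had every one below (background 36.2%). The split depended on scaling: with library totals alone the median of all genes lay at -0.47, and 10 of the genes were higher and 13 lower in BMDMs; Mvk (0.14), Idi1 (0.12), Nsdhl (0.12) and Sqle (0.11) then no longer passed. In bulk RNA, fewer cells that express a gene and less of its RNA per cell cannot be told apart.

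In the uptake, transport and storage group 4 of 5 genes were higher in BMDMs and none was lower (background 39.1% and 41.6%). Mylip stood at 105, 104 and 110 CPM in BMDMs, against 4.13, 5.66 and 4.03 CPM in MEFs, a log2 difference of 4.52 (SE 0.13, 22.9-fold; adjusted p = 2.34e-17 in edgeR's test). Every BMDM library lay far above every MEF library. Npc1, which passes cholesterol out of lysosomes, stood at 559, 641 and 627 CPM in BMDMs and at 33.4, 44.3 and 41.2 CPM in MEFs, a log2 difference of 3.93 (SE 0.11; adjusted p = 1.44e-17, edgeR). Npc2 stood at 1610, 1570 and 1710 CPM in BMDMs and at 173, 192 and 166 CPM in MEFs, a log2 difference of 3.20 (SE 0.07; adjusted p = 4.7e-19, edgeR). Neither gene's groups overlapped. Soat1 stood at 771, 865 and 814 CPM in BMDMs, against 117, 121 and 123 CPM in MEFs, a log2 difference of 2.76 (SE 0.084; adjusted p = 7.54e-17, edgeR). The strand of counting is not given in the sources used here, so reads may be shared where a gene overlaps another on the opposite strand, as Npc1, Soat1, Hmgcs1, Idi1, Fdft1, Lss, Cyp51, Ggps1, Mvd, Srebf1, Scap and Insig2 do. Stard4, a carrier of sterol between membranes, did not pass: 59.6, 62.1 and 55.3 CPM in BMDMs and 63.2, 83.1 and 66.2 CPM in MEFs.

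Of the 5 SREBP control genes, 2 were higher and 3 lower in BMDMs (background 39.1% and 41.6%). Insig1, the INSIG gene that SREBP itself induces, stood at 121, 122 and 108 CPM in BMDMs and at 30.9, 46.6 and 33.1 CPM in MEFs, a log2 difference of 1.66 (SE 0.17; adjusted p = 1.09e-07, edgeR), with no overlap. Insig2, its paralogue, ran the other way with 28.2, 29 and 27 CPM in BMDMs and 43.1, 43 and 38.9 CPM in MEFs, a log2 difference of -0.58 (SE 0.12; adjusted p = 0.000276, edgeR). The 2 INSIG genes thus differed in opposite directions between the same libraries. Srebf2, whose product acts mainly on cholesterol genes, stood at 184, 187 and 185 CPM in BMDMs and at 157, 167 and 175 CPM in MEFs. Its log2 difference of 0.15 (SE 0.064; adjusted p = 0.0351, edgeR) turned to -0.26 with library totals alone, and it missed the threshold when any of 9 single libraries was left out, among them each 0 h BMDM library. Srebf1, whose products act mainly on fatty acid genes, stood at 82.6, 89.6 and 82 CPM in BMDMs and at 96.6, 99.9 and 101 CPM in MEFs, a log2 difference of -0.24 (SE 0.062; adjusted p = 0.00185, edgeR) that came to -0.02 with the trend on GC removed. Scap, the escort, stood at 56.6, 55.1 and 60.7 CPM in BMDMs and at 80.9, 86.1 and 92.5 CPM in MEFs, a log2 difference of -0.60 (SE 0.081; adjusted p = 1.22e-06, edgeR).

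The enzymes did not move as a block. Of the 8 genes of the mevalonate pathway, Hmgcs1, Mvk and Idi1 were higher in BMDMs (background 39.1%) and Acat2 and Pmvk were lower (background 41.6%). Mvd, Fdps and Ggps1 did not pass. Mvk differed by 0.55, but not past the threshold without the second 0 h library of either cell type. Hmgcs1, the cytosolic HMG-CoA synthase, stood at 154, 174 and 162 CPM in BMDMs and at 62.6, 65.9 and 60.2 CPM in MEFs, a log2 difference of 1.37 (SE 0.12; adjusted p = 1.77e-09, edgeR). Acat2 stood at 12, 12.4 and 12.2 CPM in BMDMs and at 56.8, 54.2 and 47.5 CPM in MEFs, a log2 difference of -2.12 (SE 0.12; adjusted p = 1.02e-12, edgeR), the only member more than 4-fold lower. Its neighbour Acat3 is a near copy, and how the counting shared reads between them is not known here. Idi1, the isomerase that supplies the activated isoprene unit, stood at 70.6, 71.1 and 68 CPM in BMDMs and at 45.2, 57.5 and 41.5 CPM in MEFs, a log2 difference of 0.53 (SE 0.12; adjusted p = 0.000515, edgeR). Pmvk, phosphomevalonate kinase, stood at 14, 7.64 and 12.4 CPM in BMDMs and at 17.1, 19.4 and 15.6 CPM in MEFs, a log2 difference of -0.63 (SE 0.17; adjusted p = 0.00218, edgeR).

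Of the 11 squalene and sterol genes, 8 were higher in BMDMs (background 39.1%) and 2, Lss and Hsd17b7, were lower (background 41.6%). Fdft1, squalene synthase, did not pass. Tm7sf2 stood at 8.84, 8.68 and 8.11 CPM in BMDMs and at 1.59, 1.77 and 1.21 CPM in MEFs, a log2 difference of 2.48 (SE 0.19; adjusted p = 3.13e-10, edgeR); it overlaps Vps51 on its own strand. Msmo1, which oxidises the methyl groups of sterol intermediates, stood at 140, 146 and 128 CPM in BMDMs and at 52.8, 69.8 and 53.8 CPM in MEFs, a log2 difference of 1.22 (SE 0.11; adjusted p = 1.99e-09, edgeR). Dhcr7, the reductase of the final step, differed by 0.97 (SE 0.11) and Ebp, a sterol isomerase, by 0.74 (SE 0.11) on the log2 scale. These 4 genes were the sterol enzymes with the larger differences, and the groups of each did not overlap. Sqle, squalene epoxidase, stood at 84.2, 90.5 and 86.7 CPM in BMDMs and at 56.1, 67.1 and 57.4 CPM in MEFs, a log2 difference of 0.53 (SE 0.11; adjusted p = 0.000167, edgeR). Lss, lanosterol synthase, stood at 23.3, 22.8 and 23.7 CPM in BMDMs and at 34.8, 43.5 and 36.6 CPM in MEFs, a log2 difference of -0.73 (SE 0.098; adjusted p = 1.17e-06, edgeR). Nsdhl, Cyp51 and Sc5d, which act between lanosterol and the final step, were higher by 0.53, 0.40 and 0.27 on the log2 scale, Sc5d missed the threshold without the second BMDM or the first or the third MEF 0 h library, and Cyp51 and Sc5d turned to -0.01 and -0.15 with library totals alone. Hsd17b7, a sterol ketoreductase, was lower, with a log2 difference of -0.41 (SE 0.13).

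**Figure D2:**
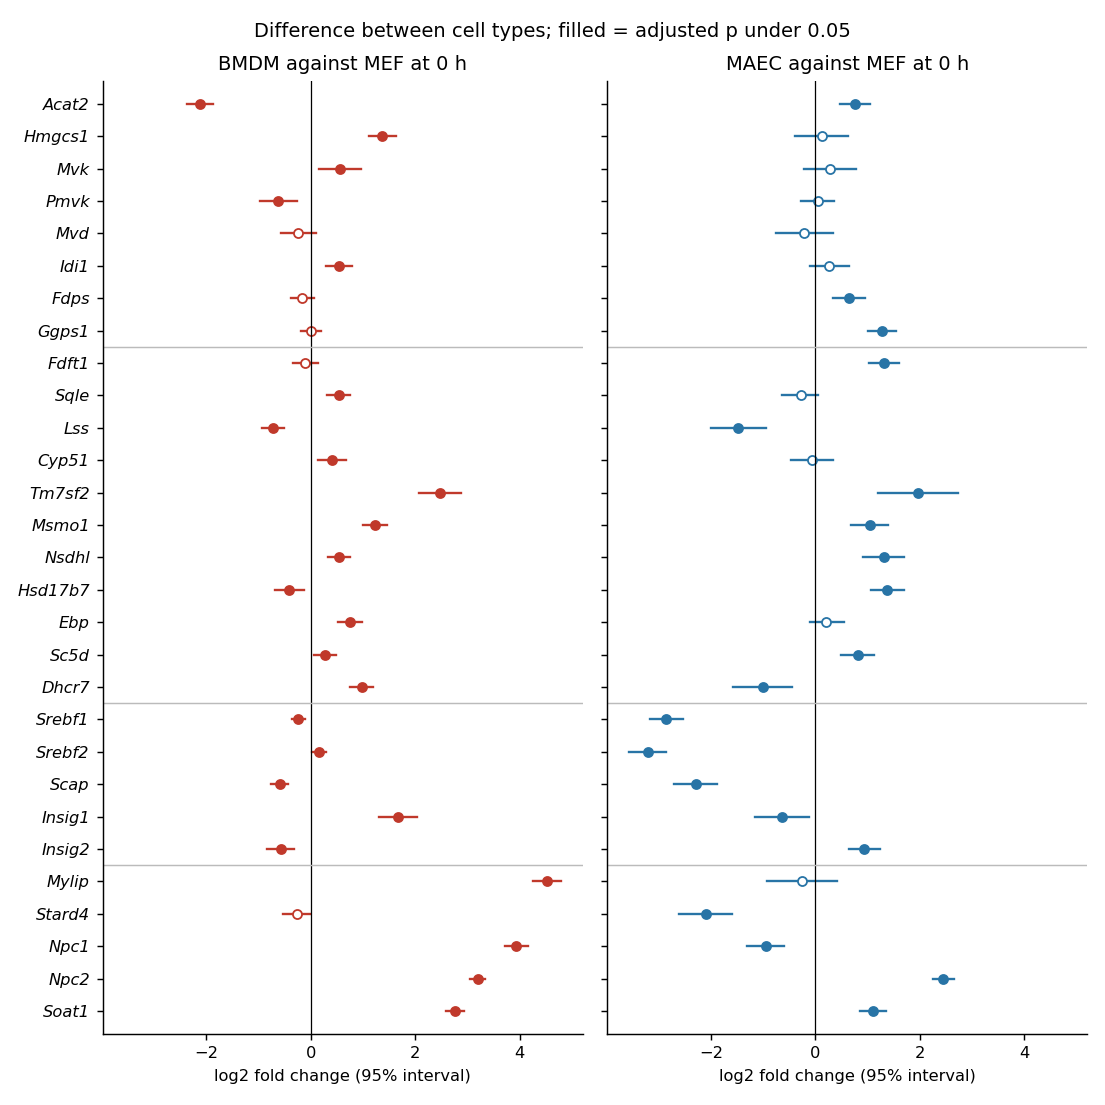
Log2 fold change of the 29 genes between cell types at 0 h with 95% intervals, BMDM against MEF at left and MAEC against MEF at right; filled points passed an adjusted p of 0.05. In the BMDM panel 17 filled points lie to the right of 0 and 7 to the left; in the MAEC panel 12 lie to the right and 8 to the left, with Srebf2 at -3.21 and Srebf1 at -2.85 the lowest.

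The 3 genes lowest in MAECs relative to MEFs were Srebf2, Srebf1 and Scap, the core of SREBP control. At 0 h, 20 of the 29 genes passed, 12 higher (background 38.1%) and 8 lower (background 34.8%) in MAECs, beside 72.8% of 16334 genes in either direction, again near the background. The median log2 difference was 0.21, against 0.11 over all genes. Over all 3 times, 11 genes had every MAEC library above every MEF library (background 28.9%) and 6 had every one below (background 30.2%). In this comparison the extraction kit, the library kit and the cell type cannot be told apart.

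Srebf2 stood at 20.5, 15.3 and 17.7 CPM in MAECs, against 157, 167 and 175 CPM in MEFs, a log2 difference of -3.21 (SE 0.17; adjusted p = 2.1e-12, edgeR). Srebf1 stood at 16.1, 12.5 and 12.4 CPM in MAECs and at 96.6, 99.9 and 101 CPM in MEFs, a log2 difference of -2.85 (SE 0.15; adjusted p = 1.3e-12, edgeR). Scap stood at 17.5, 20.2 and 14.9 CPM in MAECs and at 80.9, 86.1 and 92.5 CPM in MEFs, a log2 difference of -2.29 (SE 0.20; adjusted p = 2.14e-09, edgeR). All 3 genes lay below every MEF library in every MAEC library at every time. Their transcripts are rich in G and C (57.9% for Srebf2, 58.4% for Srebf1 and 59.1% for Scap), and over all genes the log2 difference between MAECs and MEFs was lower in GC-rich genes, with a median of -0.28 in 2771 genes of 55 to 60% GC and of 0.29 in 3227 genes of 40 to 45%. Over 16026 genes its rank correlation was -0.10 with GC and -0.28 with length, a description of libraries that also differ in kit. With each library's trend on GC removed, a correction chosen after seeing the data, Srebf2 was lower by a log2 difference of -2.70, Srebf1 by -2.30 and Scap by -1.67, and with the trend on length removed Srebf2 was at -2.51 and Scap at -1.57.

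The 19 enzyme genes, those of the mevalonate pathway and the squalene and sterol steps, did not lie lower together in MAECs. SREBP protein and activity were not measured, and a link between the levels of Srebf1 or Srebf2 and those of other genes was not tested. Of 12 fatty acid synthesis genes, the SREBP-1 type targets, 9 were lower and 1 higher (background 34.8% and 38.1%). Hmgcs1 stood at 102, 57.8 and 45.6 CPM in MAECs and at 62.6, 65.9 and 60.2 CPM in MEFs, with overlap and a log2 difference of 0.12 (SE 0.24; adjusted p = 0.651, edgeR). Sqle stood at 62.2, 44.6 and 40.8 CPM in MAECs, against 56.1, 67.1 and 57.4 CPM in MEFs, a log2 difference of -0.28 (SE 0.16; adjusted p = 0.126, edgeR). Idi1 stood at 84.5, 40.9 and 47.4 CPM in MAECs and at 45.2, 57.5 and 41.5 CPM in MEFs, a log2 difference of 0.26 (SE 0.18; adjusted p = 0.191, edgeR). The first MAEC library was the highest of its 3 in each of these genes, and all 19 enzymes in it lay above their MAEC mean. Without that library the log2 difference was -0.34 for Hmgcs1, -0.19 for Idi1 and -0.56 for Sqle, and Sqle then passed (adjusted p = 0.0123, edgeR). Insig1 was lower, at 31.3, 22.7 and 16.2 CPM in MAECs and 30.9, 46.6 and 33.1 CPM in MEFs, a log2 difference of -0.64 (SE 0.25; adjusted p = 0.025, edgeR), which missed the threshold without the second MEF (-0.45) or the third MAEC (-0.52) 0 h library. Insig2 was higher, at 79.8, 87.9 and 68.9 CPM in MAECs and 43.1, 43 and 38.9 CPM in MEFs, a log2 difference of 0.93 (SE 0.14; adjusted p = 6.22e-06, edgeR). Of the 19 enzymes 9 were higher in MAECs and 2 lower (background 38.1% and 34.8%), Lss (-1.47, SE 0.25) and Dhcr7 (-1.01, SE 0.27). The exons of Lss came to 10787 bases in all and those of Dhcr7 to 5817. Over all genes the difference between MAECs and MEFs fell with length (rank correlation -0.28). The higher enzymes included Tm7sf2 (1.97, SE 0.37), Hsd17b7 (1.38, SE 0.15), Fdft1 (1.31, SE 0.14), Nsdhl (1.31, SE 0.18) and Ggps1 (1.27, SE 0.13), the synthase of the isoprenoid used to anchor small GTPases.

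Of the transport and storage genes, Npc2 and Soat1 were higher in MAECs and Stard4 and Npc1 lower (background 38.1% and 34.8%). Npc2 stood at 1010, 797 and 1080 CPM in MAECs and at 173, 192 and 166 CPM in MEFs, a log2 difference of 2.45 (SE 0.099; adjusted p = 3.1e-14, edgeR). Stard4 stood at 25, 15.2 and 8.99 CPM in MAECs and at 63.2, 83.1 and 66.2 CPM in MEFs, a log2 difference of -2.10 (SE 0.24; adjusted p = 1.86e-07, edgeR). Both were free of overlap, and Soat1 differed by 1.10 (SE 0.12). Npc1 differed by -0.95 (SE 0.17; adjusted p = 4.05e-05, edgeR), but by 0.03 with the trend on length removed; its exons, 11317 bases in all, were the longest of the members. Mylip was low in both, at 4.65, 4.46 and 2.34 CPM in MAECs and 4.13, 5.66 and 4.03 CPM in MEFs, a log2 difference of -0.25 (SE 0.32; adjusted p = 0.489, edgeR).

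Other genes of the same biology, from 5 lists, placed the members in context. Over all genes tested, 39.1% were higher and 41.6% lower in BMDMs than in MEFs, the background for the counts of these lists. Of 9 measured genes of sterol uptake and efflux all 9 were higher in BMDMs than in MEFs, with a median log2 difference of 6.22. The sterol exporter Abcg1 stood at 351, 405 and 388 CPM in BMDMs and at 0.274, 0.589 and 0.169 CPM in MEFs, and the sterol hydroxylase Cyp27a1 at 85.5, 97.2 and 74.8 CPM in BMDMs and 0.0746, 0.102 and 0.0282 CPM in MEFs, so that MEFs held a few reads of either. The lysosomal lipase Lipa differed by 6.22 (SE 0.10). In fatty acid synthesis 3 of 12 genes were higher and 8 lower in BMDMs. Malic enzyme Me1 differed by -4.82 (SE 0.13), the desaturase Scd1 by -3.05 (SE 0.15) and Elovl6, an elongase, by -2.67 (SE 0.13). The phosphatidate phosphatase Lpin1 was higher (2.73, SE 0.26). Of 9 SREBP processing genes 5 were lower and none higher, among them the protease Mbtps1, which makes the first cut in SREBP (-1.45, SE 0.068), the sterol-responsive ligase Rnf145 (-1.31, SE 0.076) and Paqr3 (-1.14, SE 0.30). Of 5 genes listed under other cholesterol synthesis 2 were higher and 3 were lower, Acat3, Lbr (-1.48, SE 0.074) and Acat1. Isoprenoid use was even, with 4 of 10 higher and 4 lower.

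In MAECs against MEFs the background for the lists was 38.1% of all genes higher and 34.8% lower. Here too the kits and the cell type cannot be told apart. Over all genes the difference fell with gene length (rank correlation -0.28), and the part of length in the list genes was not tested. Of 10 uptake and efflux genes 7 were higher and 2 were lower, among them the exporter Abca1 (-0.74, SE 0.18). Fatty acid synthesis had 1 of 12 higher and 9 lower, led by fatty acid synthase Fasn (-4.64, SE 0.22), the acetyl-CoA carboxylase Acaca (-3.87, SE 0.17) and Scd2 (-2.93, SE 0.18). SREBP processing had 7 of 9 lower and none higher, with Paqr3 at 0.194, 0.175 and 0 CPM in MAECs and 3.48, 6.41 and 6.34 CPM in MEFs, and Mbtps2, the protease of the next cut, at a log2 difference of -2.25 (SE 0.20). Of the 5 genes listed under other cholesterol synthesis 1 was higher, Acat1 (1.03, SE 0.095), and 3 were lower, among them Lbr (-1.68, SE 0.14). In isoprenoid use 2 of 10 were higher and 4 lower.

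With ImP, none of the 29 genes passed an adjusted p of 0.05 in edgeR's test in any cell type at 1 h or 2 h, nor between 1 h and 2 h, and DESeq2 and limma-voom called none either. In BMDMs the share of all 13251 genes called was 0.0226% at 1 h and 0.0302% at 2 h, and it was 0 between 1 h and 2 h. In MAECs and MEFs it was 0 in all 3 comparisons, whereas DESeq2 called 1, 22 and 6 genes in MAECs and 10, 5 and 308 in MEFs at 1 h, at 2 h and between them. At an unadjusted p under 0.05 the BMDM comparisons held 0 members at 1 h, 1 at 2 h and 0 between 1 h and 2 h, beside 5.23%, 6.15% and 1.65% of all genes. Nor was a gene of the 5 other lists called in any of these comparisons. In BMDMs the 95% intervals of the log2 changes against 0 h lay within -0.48 and 0.73 over the 29 genes, in MAECs within -1.23 and 1.42, and in MEFs within -0.63 and 1.01. A p that misses the threshold does not show that levels were equal, and smaller changes than these limits may have gone undetected.

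**Figure D3:**
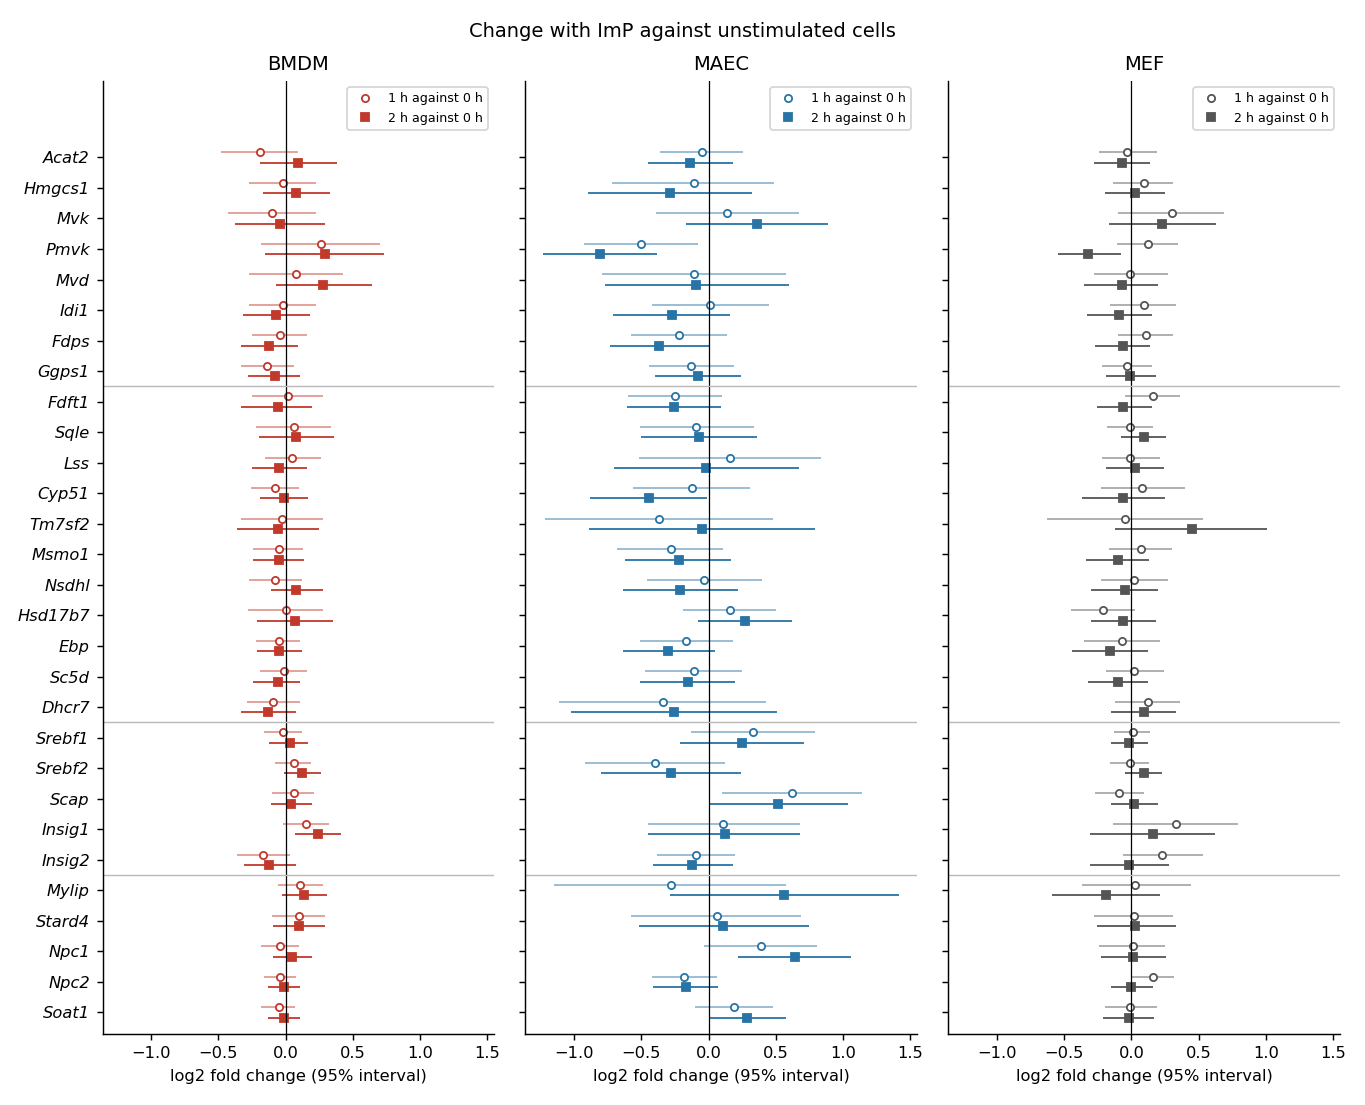
Log2 fold change of the 29 genes with ImP against 0 h and its 95% interval, open circles at 1 h and filled squares at 2 h, in BMDM, MAEC and MEF libraries. No point passed an adjusted p of 0.05; intervals are widest in MAECs, where Pmvk at 2 h lies at -0.81.

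In BMDMs the smallest p at 2 h belonged to Insig1, which measured 121, 122 and 108 CPM unstimulated, 120, 128 and 143 CPM after 1 h and 142, 144 and 128 CPM after 2 h. Its log2 change was 0.24 at 2 h (SE 0.078; adjusted p = 0.744, edgeR) and 0.15 at 1 h (SE 0.078; adjusted p = 0.934, edgeR). All 3 libraries at 2 h lay above all 3 at 0 h. Srebf2 followed at 2 h with 0.12 (SE 0.062) and Mylip with 0.14 (SE 0.078). At 1 h Insig2 (-0.17, SE 0.091) and Ggps1 came after Insig1, and between 2 h and 1 h the smallest p belonged to Acat2 (0.29), Nsdhl (0.16) and Npc1 (0.09). Hmgcs1 measured 154, 174 and 162 CPM unstimulated, 145, 152 and 186 CPM after 1 h and 179, 191 and 147 CPM after 2 h. The third library was the highest of 3 at 1 h and the lowest of 3 at 2 h. Sqle measured 84.2, 90.5 and 86.7 CPM unstimulated, 78.3, 80.8 and 113 CPM after 1 h and 92.9, 96.7 and 86 CPM after 2 h. Idi1 measured 70.6, 71.1 and 68 CPM unstimulated, 60.3, 63.3 and 82.6 CPM after 1 h and 72.8, 67.6 and 58.9 CPM after 2 h. Both showed the same order of the third libraries.

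Over the 19 enzymes, the median log2 deviation from the BMDM mean was -0.09 and -0.07 in the first 2 libraries at 1 h and 0.11 in the third, and it was 0.05 and 0.07 in the first 2 at 2 h and -0.09 in the third. At 0 h it was 0.05, 0.06 and -0.05. The third library lay on the other side of 0 from the first 2 at each of the 3 times, the unstimulated one included.

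**Figure D4:**
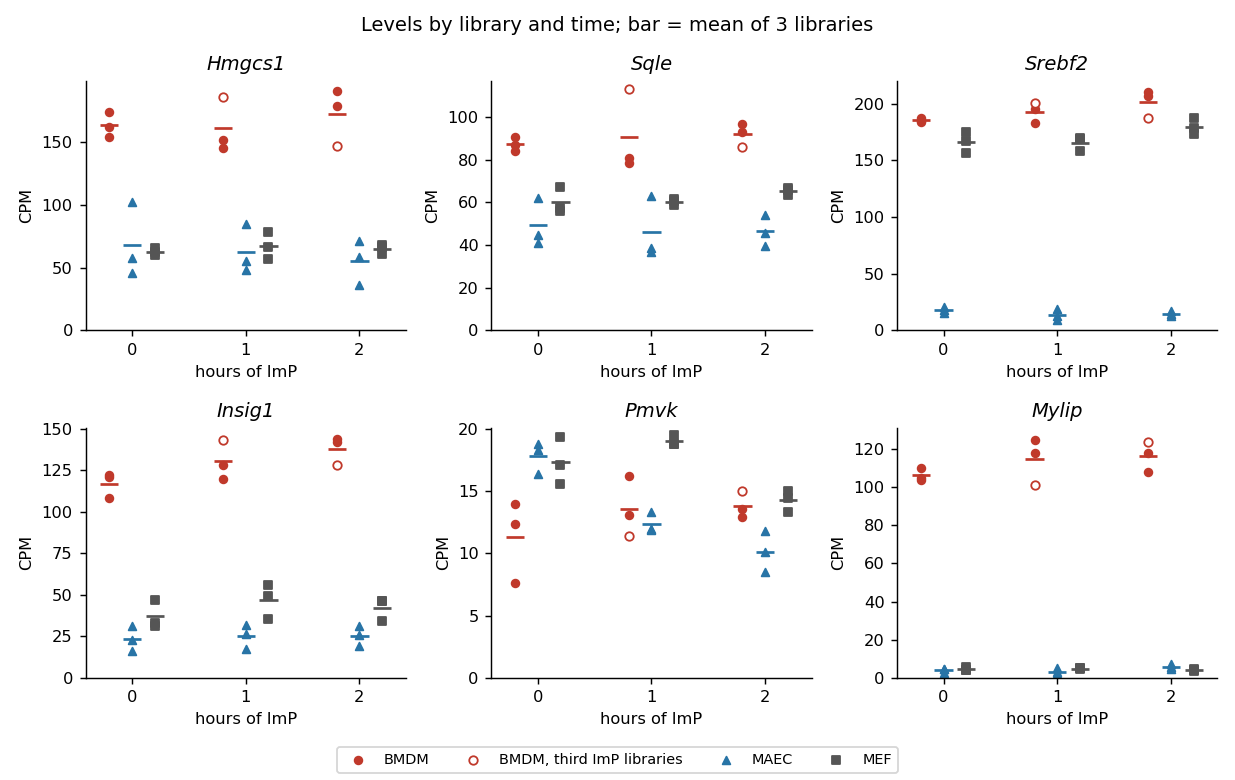
CPM of 6 genes in every library at 0, 1 and 2 h in BMDM, MAEC and MEF libraries, with bars at the mean of 3 and open circles for the third 1 h and the third 2 h BMDM libraries. In Hmgcs1 and Sqle the open circle is the highest BMDM point at 1 h and the lowest at 2 h, and Pmvk in MAECs lies lower at 1 and 2 h than at 0 h.

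Without these 2 libraries, a fit chosen after seeing the data, still none of the 29 genes was called in BMDMs, beside 0.928% of 13465 genes at 1 h, 0.119% at 2 h and 0.661% between 2 h and 1 h. The signs of the changes were less even than with all libraries. At 1 h against 0 h 21 of 29 changes were negative (19 with all libraries), with a median of -0.07 (-0.02), and at 2 h against 0 h 20 were positive (14), with a median of 0.07 (-0.01). Between 2 h and 1 h 23 were positive (21), with a median of 0.12 (0.03), beside a median of 0 over all genes. At an unadjusted p under 0.05, 1 gene was higher and 4 lower at 1 h (background 3.64% and 3.77%), 5 were higher and 0 lower at 2 h (3.86% and 3.88%), and 9 were higher and 0 lower at 2 h against 1 h (2.43% and 3.12%). The last 9 were Hmgcs1, Acat2, Sqle, Insig1, Idi1, Cyp51, Npc1, Srebf2 and Msmo1, and the comparisons at 1 h and 2 h share their unstimulated libraries. The smallest adjusted p was that of Hmgcs1 between 2 h and 1 h, with a log2 change of 0.33 (SE 0.075; adjusted p = 0.0958, edgeR), followed by Acat2 (0.50, SE 0.14) and Sqle (0.26, SE 0.074). Each ImP group then held 2 libraries.

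**Figure D5:**
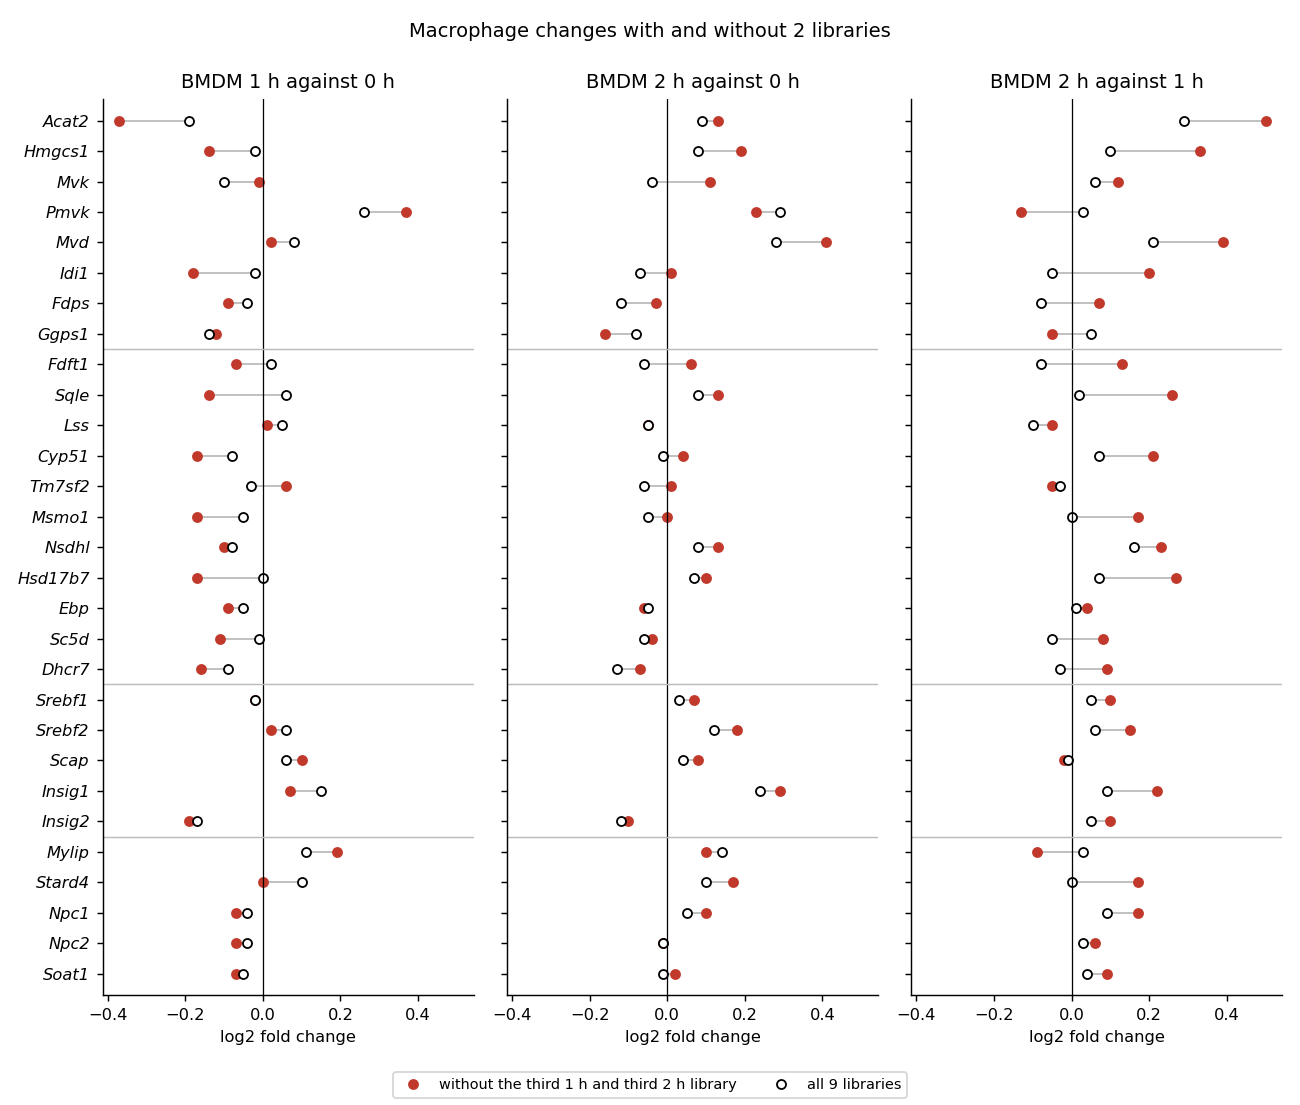
Log2 fold change of the 29 genes in BMDMs for 1 h against 0 h, 2 h against 0 h and 2 h against 1 h, with all 9 libraries (open) and after leaving out the third library of 1 h and of 2 h (filled), joined by a line. In the panel for 2 h against 1 h 23 filled points lie to the right of 0, Acat2 farthest at 0.50.

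In MAECs, 2 genes had an unadjusted p under 0.05 at 1 h and 5 at 2 h, beside 4.96% and 9.21% of 14779 genes. Pmvk measured 18.3, 16.4 and 18.8 CPM unstimulated, 13.3, 12 and 11.9 CPM after 1 h and 10.1, 8.52 and 11.8 CPM after 2 h. Its log2 change was -0.50 at 1 h (SE 0.20; adjusted p = 0.826, edgeR) and -0.81 at 2 h (SE 0.20; adjusted p = 0.539, edgeR). Every ImP library lay below every unstimulated one. Npc1 measured 19, 20.7 and 21.5 CPM unstimulated, 31.5, 29.8 and 18.2 CPM after 1 h and 33.3, 33.9 and 27.8 CPM after 2 h, a log2 change of 0.64 at 2 h (SE 0.19; adjusted p = 0.539, edgeR). Scap measured 17.5, 20.2 and 14.9 CPM unstimulated, 29.8, 17.8 and 32.7 CPM after 1 h and 30.5, 19.5 and 25.2 CPM after 2 h, a log2 change of 0.62 at 1 h (SE 0.24; adjusted p = 0.826, edgeR). Npc1 did not overlap with 0 h at 2 h, and Scap overlapped at both times. The others at 2 h were Cyp51 (-0.44), Fdps (-0.37) and Soat1 (0.29). Between 2 h and 1 h, where 0 members and 1.98% of all genes had an unadjusted p under 0.05, the smallest p belonged to Mylip (0.85, SE 0.40), which measured 5.69, 6.9 and 4.31 CPM after 2 h, against 4.78, 2.73 and 1.91 CPM after 1 h. Srebf1 and Srebf2 stayed low throughout, within 12.4 and 23 CPM and within 9.02 and 20.5 CPM.

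In MEFs the numbers of members with an unadjusted p under 0.05 were 1 at 1 h, 1 at 2 h and 3 between 2 h and 1 h, beside 5.87%, 2.43% and 12.1% of 14066 genes. Pmvk measured 17.1, 19.4 and 15.6 CPM unstimulated, 18.8, 19.5 and 18.8 CPM after 1 h and 15, 14.5 and 13.3 CPM after 2 h. Its log2 change was -0.32 at 2 h against 0 h (SE 0.11; adjusted p = 1, edgeR) and -0.43 at 2 h against 1 h (SE 0.11; adjusted p = 0.176, edgeR). The 2 h libraries all lay below those of both other times. Fold changes in MEFs also followed gene length, with a rank correlation of -0.27 at 1 h against 0 h and 0.37 at 2 h against 1 h over 13827 genes. The exons of Pmvk, 1713 bases in all, were the shortest of the members. The part of length in the members' values was not tested beyond the fit with the length trend removed, which called none. Npc2 at 1 h (0.16), Hsd17b7 at 1 h (-0.21) and Tm7sf2 at 2 h (0.45) were the next by p against 0 h, with Insig2 at 1 h (0.23) and Srebf2 at 2 h (0.09), and Fdft1 (-0.21) and Npc2 (-0.16) in 2 h against 1 h. Insig1 had the widest spread of the members in MEFs, with 30.9, 46.6 and 33.1 CPM unstimulated, 56, 48.9 and 35.1 CPM after 1 h and 45.9, 45.9 and 34.1 CPM after 2 h. The third library was the lowest at 1 h and 2 h. Srebf1 had the narrowest, lying within 96.6 and 102 CPM in all 9 libraries. Without the first MEF 1 h library edgeR called 365 genes between 2 h and 1 h in MEFs, none of them a member.

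The ImP changes of BMDMs and MEFs, which were made with the same kit, were also set against each other directly. No member and no gene passed an adjusted p of 0.05 for a difference between the changes at 1 h or at 2 h (background 0 in both), and 2 and 1 members had an unadjusted p under 0.05, beside 7.83% and 3.5% of 15389 genes; DESeq2 called 37 genes at 1 h and 5 at 2 h, none of them a member, and without the third 1 h and 2 h BMDM libraries edgeR called 43 at 1 h and 2 at 2 h, again none a member. At 1 h the 2 members were Insig2, with a difference of log2 changes of -0.41 (SE 0.17; adjusted p = 0.579, edgeR), and Npc2 (-0.21, SE 0.091), followed by Mvk (-0.40). At 2 h it was Pmvk, with 0.58 (SE 0.24; adjusted p = 1, edgeR), followed by Tm7sf2 (-0.52) and Mylip (0.31). Differences of the MAEC changes from those of the other cell types were not tested.

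Among the other lists, Lpin1 had a log2 change of 0.17 at 2 h in BMDMs (SE 0.073; adjusted p = 0.77, edgeR). At 1 h no gene of the 5 lists had an unadjusted p under 0.05 in BMDMs. In MAECs at 2 h the lipid carrier Apoe (0.64) and Rnf145 (0.49) each had an adjusted p of 0.539 in edgeR's test. In MEFs Acaca differed by 0.34 between 2 h and 1 h (adjusted p = 0.176, edgeR) and by -0.23 between 1 h and 0 h (adjusted p = 0.846, edgeR). Over all genes the changes in these 2 comparisons followed gene length (rank correlation 0.37 and -0.27), and the part of length in Acaca was not tested.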

How the data were processed

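The deposited table holds expected counts per gene symbol, all of them whole numbers, so rounding changed nothing. Of the tools listed by the submitters' processing notes, STAR and RSEM stand beside cutadapt, FastQC, DESeq2 and R 4.3.2, with GRCm38.p6 (mm10) as the genome; the strand of counting is not given in the sources used here. The 9 further tables, 1 per group, hold the same values and were not used. Models were fitted in edgeR 4.0.16 (R 4.3.3) after TMM scaling, with robust dispersion estimates and a filterByExpr minimum of 10 counts, on the 9 libraries of 1 cell type at a time. The two-sided quasi-likelihood F-test was used, with Benjamini-Hochberg adjustment over all genes tested and a threshold of 0.05. The cell type comparisons and the differences between ImP changes came from joint fits of BMDM or MAEC with MEF libraries. SE is the log2 change over the square root of F. Positions and lengths came from GENCODE M21 and promoters from RefSeq.

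The 13 comparisons were repeated with DESeq2 1.42.0, limma-voom (limma 3.58.1), RLE scaling, library totals alone, other low-count filters, the compared groups alone, a block of library codes, length or GC trends removed and each library left out, and, for the differences between ImP changes, all 27 libraries in 1 fit. The tests were checked on simulated data. Named were the 3 members with the smallest p in each ImP comparison, all called members, and Srebf1, Srebf2, Insig1, Insig2, Mylip, Hmgcs1, Idi1 and Sqle; of each other list, genes by smallest p or largest fold. Some genes of the other lists are not reported here. The members and lists were chosen with earlier results of these data known. No 2 replicates agreed within sampling noise (lowest chi-squared per degree of freedom 5.69). Depth and the 3 libraries per group limit the precision.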

Additional observations from a re-analysis of the deposited data

How the results depend on the processing

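No member was called in an ImP comparison, or for a difference between ImP changes, under any alternative that was run. Between BMDMs and MEFs 22 to 25 members were called when single libraries were left out and 20 to 25 under the other alternatives, and between MAECs and MEFs 19 to 21 and 19 to 23. Library totals alone gave -0.01 for Cyp51, -0.15 for Sc5d and -0.26 for Srebf2 in BMDMs against MEFs, and -0.05 for Hmgcs1 in MAECs against MEFs. In that second comparison removal of the length trend gave 0.03 for Npc1 and 0.18 for Sqle, and removal of the GC trend, chosen after seeing the data, gave -0.10 for Hmgcs1. With single libraries left out Hmgcs1 ranged over -0.34 to 0.27 and Idi1 over -0.19 to 0.40. The cause of these reversals was not tested. Over all genes, deviations from group means correlated at only -0.213 to 0.186 between libraries of a run of library codes, which cannot exclude a pairing. Over the 19 enzymes in MAECs, the median log2 deviation from the MAEC mean was -0.26, -0.23 and -0.24 at 0, 1 and 2 h in the second run. It was 0.38, 0.33 and -0.05 in the first run and 0.12, -0.16 and -0.03 in the third. With these runs as a replicate block 20 members were called between BMDMs and MEFs, 19 between MAECs and MEFs and 0 with ImP, and Sqle in MAECs against MEFs came to 0.03. Of other values of named genes, 31 lost and 4 gained the threshold without a change of direction. The wide spread of the MAEC libraries (biological coefficient of variation 0.326, against 0.126 in BMDMs and MEFs) limits what those comparisons could detect.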
